A study of Rattus norvegicus with 63 samples.

Results

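CDKN1B (p27Kip1), an inhibitor of cyclin-dependent kinases, was represented by 3 of the 158 analytes that reverse-phase protein arrays measured in the livers of 63 male rats. An analyte here is 1 antibody signal, and the members were all analytes whose name begins with this gene symbol: the total protein (CDKN1B), the form phosphorylated at serine 10 (CDKN1B_P-S10) and the form phosphorylated at the threonine its name gives (CDKN1B_P-T187). In the livers of control animals CDKN1B_P-S10 gave a mean relative fluorescence intensity (RFI, the deposited array signal without a further unit) of 3.62 ± 0.958 (SD, n = 18), and in those of treated animals 2.03 ± 0.724 (SD, n = 45). The lowest levels belonged to diethylstilbestrol and C.I Direct Black. The levels under cefuroxime and nifedipine overlapped those of their labelled controls, as did those under acetamide and cyproterone acetate. Against all controls of the vehicle, ethionine and phenobarbital sodium overlapped as well. The signal named CDKN1B_P-T187 showed no such shift between control and treated animals, nor did that named CDKN1B, a dim signal (rank 7 of 158 from the dimmest). The values that follow CDKN1B_P-S10 in the per-animal files are listed in the series' value table under the name CDKN1B, so the identity of the lower signal is given only as deposited.

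The gene was chosen by its treated-against-control differences in these same animals. Every compound-against-control value of the 3 analytes is therefore a description, given without a p-value. Where a member passed the threshold of the fit over all analytes, this is stated without its p, as a description from which nothing is read. Tests with their p-values are given for comparisons among control animals and for other analytes.

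As background, CDKN1B binds complexes of cyclin E or cyclin A with CDK2 and holds back entry into the DNA synthesis phase of the cell cycle. Phosphorylation at serine 10 is the most abundant modification of the protein in resting cells, where it is tied to stability and to export from the nucleus. Phosphorylation at the threonine of CDKN1B_P-T187, carried out by CDK2, creates the mark that the ubiquitin ligase subunit SKP2 recognises, which leads to degradation. In adult liver most hepatocytes are quiescent, and CDKN1B is one of the inhibitors known to restrain their return to the cycle.

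The animals were Wistar Hanover rats, 8 to 10 weeks old, dosed daily by gavage. Of the 21 groups of 3 animals, 15 received a compound and 6 received a vehicle alone. The methylcellulose controls formed 4 sets (sets 1, 2, 5 and 6, 12 animals) labelled as 14 days. The corn oil controls formed 2 sets, of which set 3 was labelled as 7 days and set 4 as 14 days. Methylcellulose set 1 is the labelled reference of acetamide (AA, 3000 mg/kg/day, 14 days), dehydroepiandrosterone (DHEA, 600 mg/kg/day, 14 days), methylcarbamate (Mcarb, 400 mg/kg/day, 14 days), methapyrilene HCl (MPy, 60 mg/kg/day, 7 days), thioacetamid (TAA, as spelled in the labels, 19.2 mg/kg/day, 7 days) and Wy-14643 (Wy, 60 mg/kg/day, 3 days). Set 2 is that of cefuroxime (CFX, 250 mg/kg/day, 14 days) and nifedipine (Nif, 3 mg/kg/day, 14 days). Set 5 is that of diethylstilbestrol (DES, 10 mg/kg/day, 3 days), ethionine (ETH, 200 mg/kg/day, 14 days) and piperonylbutoxide (PBO, 1200 mg/kg/day, 3 days). Set 6 is that of phenobarbital sodium (PB, 14 days, no dose in its labels). Corn oil set 3 is that of C.I Direct Black (CIDB, 146 mg/kg/day, 7 days) and dimethylnitrosamine (DMN, 4 mg/kg/day, 7 days), and set 4 that of cyproterone acetate (CPA, 100 mg/kg/day, 14 days). AA, DES, DHEA, ETH, Mcarb, MPy, PB and PBO are labelled as non-genotoxic carcinogens (NGC), CIDB and DMN as genotoxic carcinogens (GC), CFX and Nif as non-carcinogens (NC), and CPA, TAA and Wy as undefined. For 5 compounds (DES, MPy, PBO, TAA and Wy) the labelled duration differed from that of the labelled controls, so duration and compound cannot be told apart there by the labels. The study's methods call the control groups time-matched, which the labels of the methylcellulose sets do not show, and this conflict was not settled. Per the study's methods, the treated animals profiled were picked from larger dose groups by their histopathological changes. The 3 livers of a group are separate animals.

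A few properties of the arrays bear on the values. Across animals, the median log2 signal over all analytes, relative to that of the median animal, ran from -0.33 in DHEA replicate 1 to 0.68 in control replicate 1 of methylcellulose set 6. That control animal also had the highest CDKN1B_P-S10 and CDKN1B_P-T187 signals of the series. Because such shifts move every analyte together, fold changes are also given with each animal's median log2 signal subtracted, called centred below. Of the hepatocyte markers listed, 6 of 7 symbols were measured, and HNF4A, a transcription factor of hepatocytes, gave an RFI of 1.07 to 2.93. Others of the list varied far more, such as GLUL (-2.28 to 1.74), CYP2E1_2 (-0.707 to 14.5) and CYP3A4_2 (0.281 to 43.3). None of the 7 listed symbols of other liver cells was measured, so the share of such cells cannot be read from these arrays. In whole liver, fewer cells carrying a protein and less of it per cell cannot be told apart.

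The 3 signals differed in brightness. The median RFI of CDKN1B_P-S10 was 2.21 and that of CDKN1B_P-T187 was 2.14, ranks 133 and 131 of 158 counted from the dimmest analyte. The median RFI of total CDKN1B was 0.112, rank 7 from the dimmest, with a range over all 63 animals of 0.0868 to 0.202. Antibodies differ in affinity, so these levels do not give the proportion of the protein that is phosphorylated.

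Among the control animals the CDKN1B_P-S10 signal was high and variable. In methylcellulose set 6 the RFI was 6.40, 3.55 and 3.98, and in set 5 it was 4.42, 3.43 and 3.18. In set 2 it was 4.12, 3.41 and 3.00, and in set 1 it was 3.83, 4.03 and 2.59. The ranges of these 4 sets overlapped, with 1 animal of set 6 above all others. In corn oil set 3 the RFI was 3.05, 3.20 and 3.58, and in set 4 it was 2.83, 1.95 and 4.61. Set 4 thus held both the lowest control value of the series and the second highest. Over the 12 methylcellulose animals the mean was 3.83 ± 0.960 (SD), and over the 6 corn oil animals 3.20 ± 0.881 (SD).

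No difference between vehicles or between control sets passed the test for the 3 signals. Corn oil minus methylcellulose was -0.27 on the log2 scale for CDKN1B_P-S10 (SE 0.17, limma adjusted p 0.218), -0.18 for CDKN1B_P-T187 (SE 0.12, adjusted p 0.247) and -0.09 for total CDKN1B (SE 0.12, adjusted p 0.558). In that comparison 15.2% of all analytes were called, that is, had an adjusted p below 0.05. Between pairs of control sets of the same vehicle, 7 in all, the largest absolute log2 difference was 0.39 for CDKN1B_P-S10, 0.22 for CDKN1B_P-T187 and 0.06 for total CDKN1B. The lowest limma adjusted p over these pairs was 0.724, 0.724 and 0.935, and the lowest unadjusted p was 0.16, 0.28 and 0.77. No member was called in any pair, against 0.0904% of all tests over the 7 pairs.

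The lowest CDKN1B_P-S10 signals were those of DES, a synthetic oestrogen, and CIDB, an azo dye. In DES the RFI was 1.41, 1.04 and 1.24, all below the 3.18 to 4.42 of methylcellulose set 5. The log2 fold change was -1.58 (SE 0.27), a ratio of 0.335, and -1.69 when centred. In CIDB the RFI was 1.55, 1.11 and 1.13, all below the 3.05 to 3.58 of corn oil set 3. The log2 fold change was -1.39 (SE 0.27), a ratio of 0.381, and -1.44 when centred. Both groups also lay below every control animal of their vehicle, and the fold changes against all control sets of the vehicle were -1.61 (SE 0.22) in DES and -1.32 (SE 0.24) in CIDB.

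**Figure D1:**
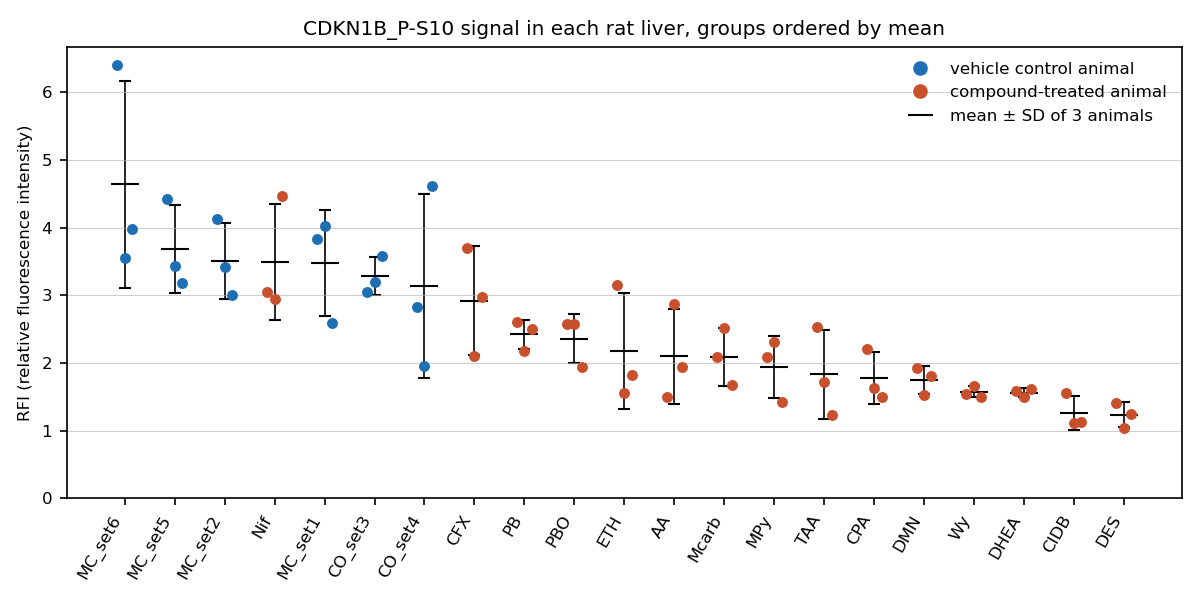
RFI of CDKN1B_P-S10 (vertical axis, from 0) in each of the 63 livers, by group along the horizontal axis and ordered by group mean; MC and CO are methylcellulose and corn oil control sets, and bars are the mean ± SD of 3 animals. Control sets fill the left end together with Nif, and DES and CIDB stand at the right end with means of 1.23 and 1.26.

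DHEA, a steroid that causes peroxisome proliferation in rodent liver, and Wy, a synthetic ligand of the peroxisome proliferator receptor PPARA, gave nearly the same level with little spread. In DHEA the RFI was 1.58, 1.49 and 1.61, and in Wy it was 1.54, 1.66 and 1.5. All 6 animals lay below the 2.59 to 4.03 of methylcellulose set 1, which both compounds share, and below every methylcellulose control. The log2 fold changes were -1.14 (SE 0.27) in DHEA and -1.13 (SE 0.27) in Wy. Centred, they were -0.92 and -1.04, where the animal medians differed from those of set 1 by a mean of -0.21 in DHEA and -0.09 in Wy. Without control replicate 5 of set 1 the value in DHEA was -1.02, which no longer passed the threshold.

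TAA, MPy, AA and Mcarb share the controls of set 1 as well. In TAA, a hepatotoxicant activated in the liver, the RFI was 2.53, 1.72 and 1.23, a log2 fold change of -0.97 (SE 0.27). In MPy, an antihistamine, the RFI was 2.08, 2.31 and 1.42, a log2 fold change of -0.85 (SE 0.27). The animals of both groups lay below all methylcellulose controls, of which the lowest was at 2.59. The animal medians differed from those of set 1 by a mean of -0.25 in TAA and -0.17 in MPy, and the centred values of CDKN1B_P-S10 were -0.71 and -0.68. In AA the RFI was 1.49, 2.87 and 1.94, a log2 fold change of -0.75 (SE 0.27). In Mcarb, a carbamate ester, it was 2.09, 2.52 and 1.67, a log2 fold change of -0.73 (SE 0.27). Mcarb stayed below the set, and 1 animal of AA lay within its range. In TAA the threshold was passed in the fit with all animals, but not without control replicate 4 (-0.88), control replicate 5 (-0.85), control replicate 6 (-1.17), TAA replicate 2 (-0.95) or TAA replicate 3 (-0.71).

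Of the remaining carcinogens on methylcellulose, PB, an activator of the nuclear receptor CAR, gave an RFI of 2.60, 2.18 and 2.50. All 3 lay below the 3.55 to 6.40 of set 6, and the log2 fold change was -0.89 (SE 0.27). The centred value was -0.48, where the animal medians differed from those of set 6 by a mean of -0.41. Without control replicate 1 of set 6, the animal with the highest overall signal, the fold change was -0.64 and did not pass the threshold. Nor did it pass without PB replicate 1 (-0.94), PB replicate 2 (-0.82) or PB replicate 3 (-0.92). The call was also lost in 15 fits that each left out 1 animal outside this comparison. ETH, an analogue of methionine, gave 3.15, 1.55 and 1.82, a log2 fold change of -0.81 (SE 0.27). All 3 animals lay below set 5, but replicate 1 by only a narrow margin, and without it the change was -1.12 and passed the threshold. PBO, an inhibitor of cytochrome P450 enzymes, gave 2.58, 2.57 and 1.94, a log2 fold change of -0.64 (SE 0.27). These animals too lay below every methylcellulose control, the highest just under the 2.59 of set 1.

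On corn oil, DMN, a nitrosamine that alkylates DNA, gave 1.92, 1.52 and 1.80 with a log2 fold change of -0.91 (SE 0.27). All 3 lay below both corn oil sets, the highest just under the lowest control of set 4. CPA, a steroidal antiandrogen, gave 2.21, 1.63 and 1.49 with a log2 fold change of -0.75 (SE 0.27). Its range overlapped that of set 4 because control replicate 2 there was at 1.95. Without that control the fold change was -1.05 and passed the threshold, and without control replicate 3, at 4.61, it was -0.42. The animal medians differed from those of set 4 by a mean of 0.22, and the centred value was -0.97.

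The non-carcinogens were the closest to their controls. In CFX, a cephalosporin antibiotic, the RFI was 3.70, 2.10 and 2.97, a log2 fold change of -0.29 (SE 0.27). In Nif, a calcium channel blocker, it was 3.05, 2.94 and 4.47, a log2 fold change of -0.02 (SE 0.27). Both ranges overlapped the 3.00 to 4.12 of set 2, and 1 animal of CFX lay below every methylcellulose control. The difference between classes was not tested.

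**Figure D2:**
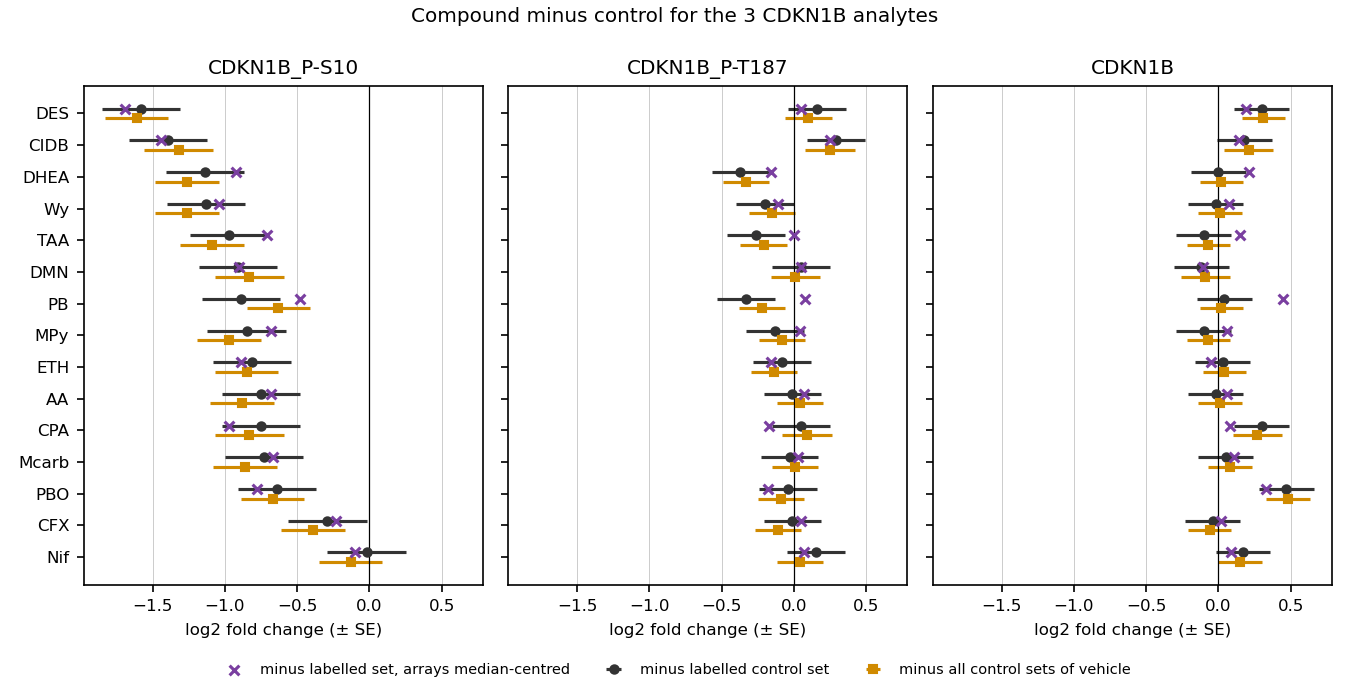
Log2 fold change of each compound (rows, ordered by CDKN1B_P-S10) for the 3 CDKN1B analytes (panels); circles are against the labelled control set and squares against all control sets of the vehicle, each ± SE from the limma fit, and crosses are median-centred. CDKN1B_P-S10 spans -1.58 to -0.02 against the labelled sets, whereas CDKN1B_P-T187 spans -0.37 to 0.29 and total CDKN1B -0.12 to 0.47.

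As counts, CDKN1B_P-S10 passed an adjusted p of 0.05 as lower in 6 compounds against the labelled sets (CIDB, DES, DHEA, PB, TAA and Wy), and none of the 3 analytes passed as higher. Over all 158 analytes and 15 compounds, 1.73% of the tests were called lower and 1.43% higher. By compound, the share of analytes called lower was 3.16% in CIDB, PB and TAA, 1.9% in DES, 5.06% in DHEA, 7.59% in Wy, 0.633% in ETH, 1.27% in PBO, and 0.0% in AA, CFX, CPA, DMN, Mcarb, MPy and Nif. These contrasts chose the gene, so nothing is read from the counts. Centring also left 6 compounds, but with CPA and ETH in place of PB and TAA.

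Against all control sets of the vehicle, CDKN1B_P-S10 was called lower in 11 compounds: AA, CIDB, CPA, DES, DHEA, ETH, Mcarb, MPy, PBO, TAA and Wy. The share of all tests called lower was 3.12%, and that called higher 1.86%. By compound, the share called lower was 0.633% in AA, CPA and Mcarb, 2.53% in CIDB and ETH, 1.9% in DES, 14.6% in DHEA, 3.8% in MPy, 3.16% in PBO, 4.43% in TAA, 12.0% in Wy, and 0.0% in CFX, DMN, Nif and PB. Of the 11 calls, 7 were lost in at least 1 fit that left out a single animal of the comparison. PB, called against its own set, had a log2 fold change of -0.63 (SE 0.22) here and was not called.

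Range separation gave a further count. All 3 treated animals lay below every animal of the labelled set in 11 of 15 compounds for CDKN1B_P-S10, where 9.24% of all analytes and compounds did. They lay below every control animal of the vehicle in 9 compounds (CIDB, DES, DHEA, DMN, Mcarb, MPy, PBO, TAA and Wy), where 2.49% did. For CDKN1B_P-T187 these counts were 2 (DHEA and PB) and 0, and for total CDKN1B 0 and 0.

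Ordered by mean, the 21 groups formed a gradual series for CDKN1B_P-S10. Methylcellulose set 6 stood at the top with 4.64 ± 1.53 (SD, n = 3), followed by sets 5 and 2, Nif with 3.49 ± 0.857, set 1, corn oil sets 3 and 4, and CFX with 2.92 ± 0.804. Below them came PB, PBO, ETH, AA, Mcarb, MPy, TAA, CPA, DMN, Wy and DHEA, from 2.42 ± 0.220 in PB to 1.56 ± 0.0614 in DHEA. CIDB with 1.26 ± 0.247 and DES with 1.23 ± 0.185 closed the order. Neighbours differed by less than the larger of their SDs at every step but that from DHEA to CIDB, where the gap was 0.3, and no neighbours had ranges that were apart.

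By label class, the treated animals ranged from 1.04 to 3.15 in the 24 NGC animals, from 1.11 to 1.92 in the 6 GC animals, from 1.23 to 2.53 in the 9 animals of undefined compounds, and from 2.10 to 4.47 in the 6 NC animals. The medians were 1.94, 1.53, 1.63 and 3.01 in that order. By duration, the median was 1.54 in the 9 animals dosed for 3 days, 1.63 in the 12 dosed for 7 days and 2.14 in the 24 dosed for 14 days. Class, vehicle, duration and compound are partly tied together in this design, with both GC compounds in corn oil at 7 days and both NC compounds in methylcellulose at 14 days. Of the NGC compounds AA, DHEA, ETH, Mcarb and PB share the vehicle and duration of the NC compounds, and class and compound cannot be told apart there.

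The signal of CDKN1B_P-T187, the form marked for SKP2, had nearly the same mean in control and treated animals. The RFI had a mean of 2.20 ± 0.372 (SD) over the 18 controls and 2.16 ± 0.357 (SD) over the 45 treated animals. The lowest fold change was in DHEA, where the RFI was 1.60, 1.79 and 2.05 against 2.07, 2.22 and 2.77 in set 1. The fold change on the log2 scale was -0.37 (SE 0.20), but -0.16 when centred. In PB the RFI was 1.96, 1.83 and 2.05 against 3.26, 2.08 and 2.17 in set 6, a log2 fold change of -0.33 (SE 0.20), or 0.08 when centred. Both groups lay just below their labelled set and overlapped the other methylcellulose controls. The highest fold change was 0.29 (SE 0.20) in CIDB, with 2.71, 1.94 and 2.56 against 1.91, 1.75 and 2.18 in corn oil set 3, and those ranges overlapped. CDKN1B_P-T187 was called in 0 compounds under either reference.

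Total CDKN1B, the dimmest of the 3, was highest in PBO. There the RFI was 0.137, 0.202 and 0.140, against 0.114, 0.134 and 0.0947 in set 5. All 3 animals lay above set 5, but they overlapped the other methylcellulose controls, which reached 0.158. The log2 fold change was 0.47 (SE 0.19), not called, and against all methylcellulose sets it was 0.48 (SE 0.15), called. That call was lost without PBO replicate 2 (0.30) and without control replicate 3 of set 6 (0.44), 4 of set 1 (0.45), 9 of set 5 (0.45) or 11 of set 2 (0.46). PBO replicate 2 had the second highest median over all analytes of any animal, 0.38. Against set 5 the centred fold change was 0.33, and the uncentred one without PBO replicate 2 was 0.29. In DES the RFI was 0.108, 0.174 and 0.145, a log2 fold change of 0.30 (SE 0.19), or 0.19 when centred. CPA also gave 0.30 (SE 0.19), from 0.143, 0.110 and 0.131 against 0.125, 0.0930 and 0.0951, or 0.08 when centred. The lowest fold change was -0.12 (SE 0.19) in DMN. Centring lifted PB from 0.04 to 0.45, where it was called, so both the size and the call of total CDKN1B in that group depend on the scaling. Centred and against all methylcellulose sets, total CDKN1B was called higher in DES (0.32) and PBO (0.46).

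**Figure D3:**
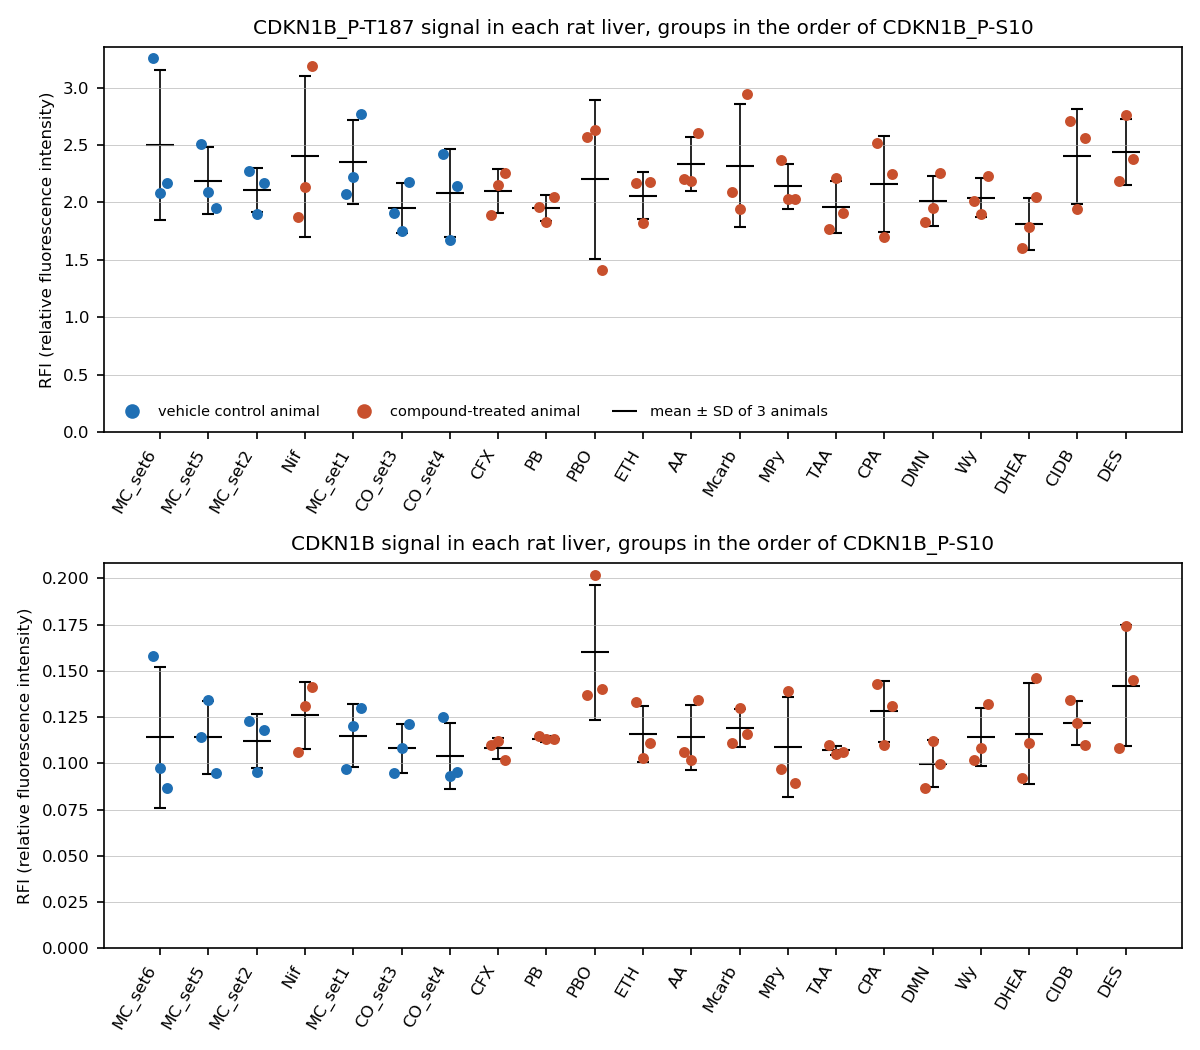
RFI of CDKN1B_P-T187 (upper panel) and total CDKN1B (lower panel), both from 0, in each liver, with groups in the order of the CDKN1B_P-S10 plot and bars for the mean ± SD of 3 animals. Control and treated animals overlap along the whole order, and the highest total CDKN1B value is the 0.202 of PBO replicate 2.

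Both phosphorylated signals had similar medians, and a shift common to a whole array cancels in their difference within an animal. The log2 signal of CDKN1B_P-S10 minus that of CDKN1B_P-T187 was 0.75 ± 0.06 (SD, n = 3) in methylcellulose set 5, 0.87 ± 0.10 in set 6 and 0.75 ± 0.10 in corn oil set 3. It was -0.99 ± 0.39 in DES and -0.93 ± 0.22 in CIDB. These differences have meaning only between groups, since the antibodies differ. Against the labelled set, this difference changed by -1.74 in DES, -1.69 in CIDB, -0.96 in DMN and -0.93 in Wy. The change was -0.56 in PB, -0.28 in CFX and -0.17 in Nif. All 3 animals lay below the labelled set in 8 compounds (CIDB, CPA, DES, DMN, ETH, PB, PBO and Wy) and below all controls of the vehicle in 5 (CIDB, CPA, DES, DMN and Wy). How often other pairs of analytes separate in this way was not counted, so nothing is read from these counts. Methylcellulose set 1 gave 0.55 ± 0.56, and DHEA, at -0.21 ± 0.17, overlapped it. The 3 members were only loosely related over the deviations of the 63 animals from their group means. Spearman's rho was 0.226 between CDKN1B and CDKN1B_P-S10, 0.256 between CDKN1B_P-S10 and CDKN1B_P-T187, and 0.583 between CDKN1B and CDKN1B_P-T187. After centring these were 0.0166, 0.0535 and 0.153, and the animals share array-wide shifts that the first values include.

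The deposited value table, in which the authors give log2 ratios to the median control, uses the same 158 names, but its rows for CDKN1B did not match the per-animal files by name. Over the 45 treated animals, as deviations from group means, the RFI of CDKN1B_P-S10 followed the table's row CDKN1B with a Spearman's rho of 0.833, and 0.881 when centred, the highest of the 158 rows. With the row of its own name rho was 0.369, and 0.373 when centred, rank 44. The RFI of total CDKN1B followed the row CDKN1B at 0.0104 and the row CDKN1B_P-S10 at 0.104, so the names are not simply exchanged. The RFI of CDKN1B_P-T187 followed its own row at 0.294, and at 0.551 when centred, the second highest of the 158. For the other 155 analytes the median rho with the row of the same name was 0.556, and 0.648 when centred. After centring, 103 of the 158 analytes had their best match in the row of their own name, and 75 without centring. Division by a control median shifts all animals of a group alike and leaves such deviations unchanged. The RFI and the value table thus differ in their values as well, for a reason that was not tested.

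Which name the authors' table or the per-animal files give correctly was not tested, and it decides what the compound differences are called. Under the name CDKN1B, the table gave log2 fold changes of -1.58 in CIDB (SE 0.33), -1.57 in DES, -1.2 in Wy and -1.06 in CPA, all called. The remaining compounds lay between -0.99 in DHEA and -0.22 in Nif, and PB was at -0.48. Under the name CDKN1B_P-S10, the table gave values from -3.05 in CFX to 1.08 in DHEA with an SE of 1.2, and called none. This row had the largest spread within groups of all 158, an SD of 1.52 against a median of 0.35. In CFX its 3 animals were at 2.02, -7.97 and -2.08. Under CDKN1B_P-T187 the table's fold changes ran from -0.95 to 0.38, and none was called against the labelled sets. Against all control sets of the vehicle, 2 were called under this name, DHEA (-0.89) and PBO (-0.85). Under the name CDKN1B 8 were called against that reference, and under CDKN1B_P-S10 0. The table holds a 0 for an animal of every control set, as division by the set's median gives. For the row CDKN1B that animal had the median RFI of CDKN1B_P-S10 in 4 of 6 sets, that of CDKN1B_P-T187 in 3 of 6 and that of total CDKN1B in 1 of 6.

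**Figure D4:**
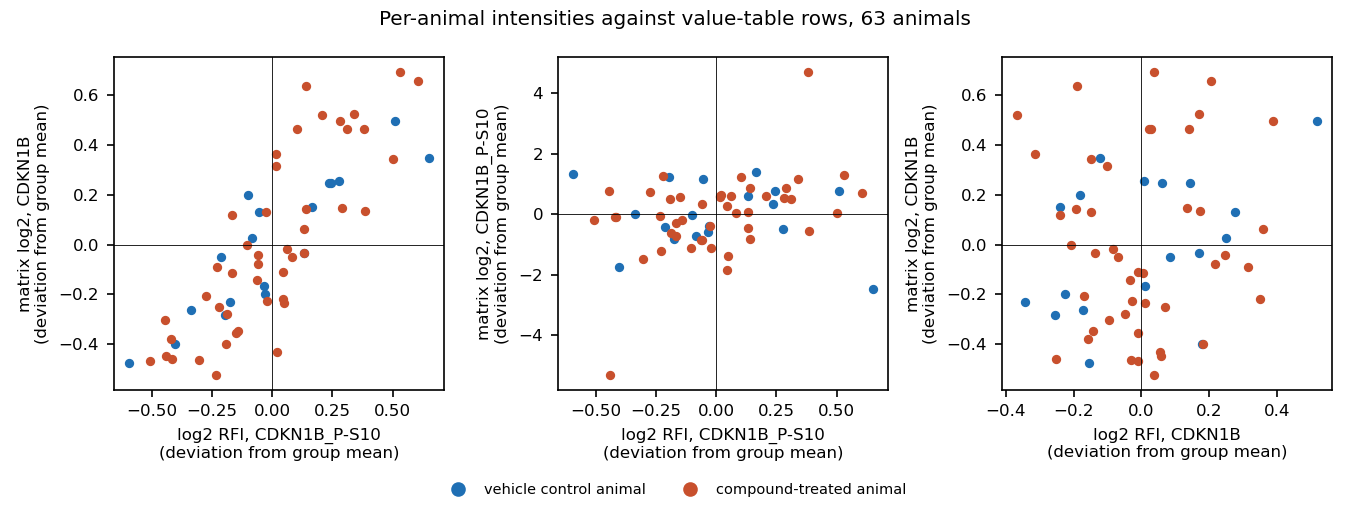
Deviation of each of the 63 animals from its group mean, in log2 RFI of the per-animal files (horizontal axis) and in the log2 value table (vertical axis). The table's row CDKN1B follows the RFI named CDKN1B_P-S10 along a line (left, rho 0.838 over 63 animals), whereas the row CDKN1B_P-S10 (middle, 0.267) and the RFI named CDKN1B (right, 0.111) do not.

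Other proteins of the cell cycle, and kinases and other regulators known to act on CDKN1B, were followed as a list. Of its 60 symbols 18 were measured, as 31 analytes. CDK2, CDK4 and SKP2 were not among them. In the 465 tests against the labelled sets, 3 were called higher and 10 lower, or 2.8% against 3.16% over all analytes, and the median log2 fold change was -0.06 against -0.03 over all analytes. The cell cycle proteins alone had 3 called higher and 1 lower among 225 tests (1.78%), and the kinases and regulators 0 higher and 9 lower among 240 (3.75%). Over all analytes 1.43% of the tests were called higher and 1.73% lower. The lists themselves were not tested.

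CCNE2 (cyclin E2), a partner of CDK2 that CDKN1B inhibits, rose in PB and PBO. In PB the RFI was 0.389, 0.417 and 0.631 against 0.367, 0.2 and 0.199 in set 6. On the log2 scale PB was higher by 0.94 (SE 0.20) with a limma adjusted p of 0.00139, and by 1.34 when centred. In PBO it was 0.321, 0.351 and 0.323 against 0.175, 0.232 and 0.186, higher by 0.76 (SE 0.20) with a limma adjusted p of 0.0118. The groups did not overlap in either comparison. The call in PB was lost without PB replicate 3 (0.72, adjusted p 0.0522). That in PBO was lost without control replicate 7 (0.68, adjusted p 0.0987), control replicate 9 (0.72, adjusted p 0.0533) or PBO replicate 2 (0.72, adjusted p 0.0615). In the value table CCNE2 was at 1.78 in PB (adjusted p 3.91e-08) and at 0.73 in PBO, not called there (adjusted p 0.0532). In the other 13 compounds CCNE2 was not called against the labelled sets. The active form of Aurora kinase A, named AURKA_P-T288/T232/T198, was higher in PBO by 0.72 (SE 0.22, adjusted p 0.0383), a dim signal of 0.120 to 0.148 there and a call lost in 4 of 6 fits without 1 animal (adjusted p 0.092 to 0.247). In the value table this analyte was at 0.07 (adjusted p 0.98). The oncoprotein MYC was lower in PB by -0.68 (SE 0.21, adjusted p 0.0482), but by -0.27 when centred (adjusted p 0.259) and by -0.39 without control replicate 1 of set 6. That call was lost in 4 of 6 fits without 1 animal, namely that control or PB replicate 1 (-0.70), 2 (-0.65) or 3 (-0.68). The value table gave MYC at -0.13 in PB (adjusted p 0.971). CCND1 (cyclin D1), which carries CDKN1B into complexes with CDK4, ranged from -0.54 in CPA to 0.26 in ETH with no call (lowest adjusted p 0.245). The value in CPA rests on 1 control animal, with an RFI of 2.14, 1.87 and 2.2 against 1.86, 1.88 and 7.74. The proliferation marker MKI67 ranged from -0.32 in PB to 0.67 in Mcarb, also with no call (lowest adjusted p 0.378).

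Among the regulators, the active form of the kinase ERK1, MAPK3_P-T202/Y204, accounted for 6 of the 9 lower calls. In DHEA the RFI was 1.32, 1.44 and 1.48 and in Wy 1.33, 1.52 and 1.45, against 3.37, 2.94 and 2.77 in set 1. The log2 fold changes were -1.10 (SE 0.24, limma adjusted p 0.00201) and -1.07 (SE 0.24, adjusted p 0.00149), and both calls were kept without any 1 of their 6 animals. In the value table the fold change was -0.87 in DHEA, not called (adjusted p 0.103), and -1.05 in Wy (adjusted p 0.0206). It was also lower in ETH (-0.94, adjusted p 0.0236), CIDB (-0.91, adjusted p 0.00662), PB (-0.87, adjusted p 0.0232) and PBO (-0.87, adjusted p 0.016). The value table kept the call in CIDB (-1.05, adjusted p 0.0163). It did not keep those in ETH (-0.69, adjusted p 0.374), PB (-0.52, adjusted p 0.892) and PBO (-0.65, adjusted p 0.289). In PB the centred value was -0.46 (adjusted p 0.179), and it was -0.79 without control replicate 1 of set 6 (adjusted p 0.168). The PB call was also lost without PB replicate 2 (-0.81) or PB replicate 3 (-0.82). Calls in CIDB, ETH and PBO were each lost without 2 to 4 of 6 single animals. Inhibited GSK3B, named GSK3B_P-S9 for the site that AKT phosphorylates, was lower in Wy (-0.86, adjusted p 0.0032) and in DHEA (-0.83, adjusted p 0.00652). The Wy call was kept without any 1 animal, and that in DHEA was lost without DHEA replicate 1 (-0.60) and without control replicate 4 (-0.76) or 5 (-0.81) of set 1. In the value table GSK3B_P-S9 was at -1.25 in Wy (adjusted p 0.0123) and at -0.94 in DHEA, not called (adjusted p 0.106). PRKAA1, the catalytic subunit of the energy sensor AMPK, was lower in PB (-0.83, adjusted p 0.0232), at -0.42 when centred (adjusted p 0.0621) and -0.59 without control replicate 1 of set 6. That call was lost without this control and without PB replicate 1 (-0.75), 2 (-0.85) or 3 (-0.89). The value table gave PRKAA1 at -0.32 in PB (adjusted p 0.971).

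**Figure D5:**
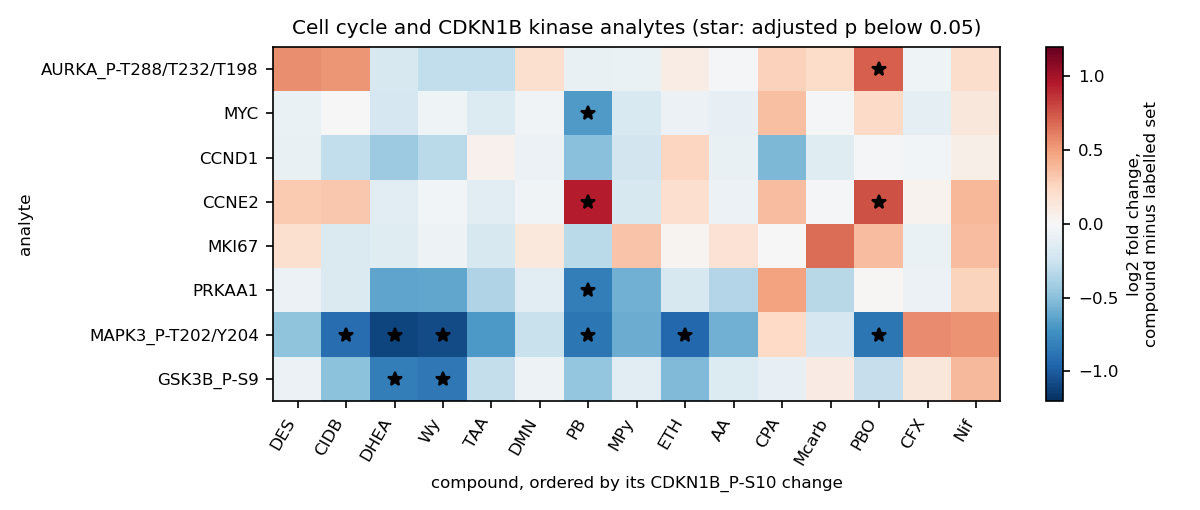
Log2 fold change against the labelled control set (colour) of the 8 list analytes that were called in any compound or are always named, by compound in the order of the CDKN1B_P-S10 fold change; a star marks a limma adjusted p below 0.05. MAPK3_P-T202/Y204 is starred in 6 columns and CCNE2 in PB and PBO.

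The analytes most like each member were found by Spearman's rho, first over the 21 group means, which share the groups that chose the gene, and then over the deviations of 63 animals from those means. Over group means CDKN1B_P-S10 was closest to GLUL (glutamine synthetase, rho 0.845), ELK1 (a transcription factor downstream of ERK, 0.747) and CCND1 (0.692), where the median over all other analytes was 0.134. Over deviations it was closest to CYP2B6_3 (a cytochrome P450 signal, 0.671), RPS6KA4 (a kinase of the ERK and p38 pathways, 0.652) and PDK1_P-S241 (0.599), with a median of 0.245. None of the 3 was common to both. The RFI of GLUL ran from -2.28 to 1.74, and animals at or below 0 were missing from its group means. CDKN1B_P-T187 was closest over group means to PAK1_P-S141 (0.849), MTOR (0.819) and HIST1H3A (0.765), and over deviations to JUN (0.822), MAP2K4_P-S257/T261 (0.788) and HIST1H3A_TM-K27 (0.758). The medians there were 0.455 and 0.456. Total CDKN1B was closest over group means to HIST1H3A_A-K18 (0.836), PDK1 (0.818) and BRAF_P-S445 (0.812), and over deviations to MYC_P-T58/S62 (0.86) and CSNK1A1 (0.808), with medians of 0.418 and 0.526. Animals share array-wide shifts in these values, which carry no test.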

How the data were processed

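Reverse-phase protein arrays were printed with liver lysates and probed with antibodies for 158 analytes. Per the file headers, the per-animal files hold RFI, an intensity that the authors made from spot signals less local background and blank, with array-wide normalization and a weighted mean of replicate spots. The deposited value table gives log2 values relative to the median control animal, and the authors imputed missing ones. Its values are not simply the RFI rescaled in this way, since deviations from group means differed between both sources. The RFI was log2-transformed, values at or below 0 were left missing, and all 63 animals were fitted with 21 group means in limma 3.58.1 (R 4.3.3), with Benjamini-Hochberg adjustment over the 158 analytes of each comparison and calls at 0.05. Fold changes against all controls of a vehicle used the mean of its set means. The fit was also run on simulated data with changes planted in DES and independent noise for each analyte and animal. Those data held no array-wide shifts, so that run says nothing on how the fit handles them. Tables and plots were made in Python 3.11.15 (pandas 2.3.3, numpy 2.4.6, matplotlib 3.10.9). The number of spots read per analyte is not given in the sources used here, so 3 animals per group set the precision. Control and treated animals share replicate numbers for PB and CPA. Deviations of same-numbered animals correlated at 0.0328, 0.00721 and 0.0685 for PB and at 0.307, 0.219 and 0.159 for CPA. Whether the numbers pair the animals was not settled. The fit reported did not pair them, and an alternative fit used a replicate block for both compounds.

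The members, the gene lists and the tests were chosen with earlier results of these data known. The list analytes named are those called in at least 1 compound, with MKI67, CCNE2, CCND1, CDK2 and CDK4 where measured, and the likeness rule took the top 3, of which 1 for total CDKN1B is not reported here. Alternatives were another reference, centring, quantile normalization, the value table under the same and under the closest row, trended and robust variances, fits of the compared animals alone, a floor for values at or below 0, removal of analytes with a median RFI below 0.2, a replicate block and leaving out each animal. Pooling all controls of a vehicle into 1 group was added after the data were seen.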

Additional observations from a re-analysis of the deposited data

How the results depend on the processing

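The number of compounds in which CDKN1B_P-S10 was called, 6 in the fit reported, was 11 against all control sets of the vehicle, 12 with those controls pooled in 1 group, 10 after quantile normalization and 0 in the value table under the same name, and it was 4 to 7 without single animals. It was 6 after centring, with trended and robust variances and without dim analytes, 5 with a floor for values at or below 0, and 4 in fits of the compared animals alone and in the table's closest row. With the replicate block it was 6, the fold change in CPA was -0.75 (SE 0.27), and the block changed no call of the 3 members. Under the same name in the table the fold change was positive in 10 compounds (0.103 to 1.08), among them the called DHEA (1.08), TAA (0.78) and Wy (0.41). Total CDKN1B was called in 0 compounds, but in 1 against all vehicle control sets, in 1 with them pooled, in 1 after centring and in 4 in the value table under the same name. Centred and against all vehicle control sets, it was called in DES and PBO. Against the labelled sets it was called in 0 whichever single animal was left out. CDKN1B_P-T187 was called in 0 compounds under every alternative against the labelled sets, and 0 members were called between vehicles or between control sets, also without any single control animal. The 13 calls in the list were 15 with the replicate block and 9 to 21 without single animals, with the 21 reached without corn oil set 4 replicate 3. The cause was not tested. With 3 animals a group, a change of the size of the SE cannot be told from none.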

Other observations

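Differently named best matches occurred for other antibodies too. Among the analytes whose centred RFI followed a differently named row of the value table best, CDKN1B_P-S10 had the highest rho with that other row (0.881). The next were RPS6KA4 with PTK2 (0.768) and HIST1H4A_A-K8 with AVEN (0.761), both of which followed their own row almost as well (0.739 and 0.743). RPS6KB1_P-T389 followed EGFR_P-Y845 at 0.685 and its own row at 0.12. These values are over the 45 treated animals and carry no test.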
